A study of Mus musculus with 12 samples.

Results

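Keratins are the intermediate filament proteins of epithelial cells, and this account covers 10 of them. They were listed as keratins of the basal and suprabasal layers of the epidermis between the hair follicles. Of these, Krt79 is known from the upper hair follicle and the sebaceous duct. The 10 were chosen by gene symbol (Krt5, Krt14, Krt15, Krt1, Krt10, Krt2, Krt77, Krt78, Krt79 and Krt80) among the 23282 entries of the count data, and each symbol had 1 entry. A keratin filament is built from pairs of a type I and a type II chain. Dividing cells of the basal layer make mainly the pair of Krt5 (type II) and Krt14 (type I), with Krt15 as a further type I chain of basal cells and of the hair follicle bulge. Cells that leave the basal layer and differentiate switch to the pair of Krt1 (type II) and Krt10 (type I), and Krt2 is a type II keratin of the late suprabasal layers. The study asked how a high-fat diet changes the skin in a mouse model of atopic dermatitis.

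Dorsal skin of 12 male wild-type C57BL/6J mice, bought at 5 weeks of age, was examined, with 1 sequencing library per mouse. The AD group (5 mice) received normal chow, and the HF + AD group (7 mice, labelled AD+OB) received a diet with 60 kcal% fat. The diet of the HF + AD group began 4 weeks before the skin treatment and lasted 10 weeks in all. Both groups had the skin painted with 0.5% dinitrochlorobenzene (DNCB), a contact sensitizer, in acetone and olive oil 3 times a week for 6 weeks. The DNCB treatment is thus shared by both groups, and the comparison is one of diet within treated skin. Mice without DNCB were not analysed here. The model is a chemical sensitization of whole skin, and neither cages nor litters are given for the mice.

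Total counts lay between 9746937 and 11688979 in the AD group and between 10726845 and 13462434 in the HF + AD group. Genes with at least 1 read numbered 13100 to 15063 in the AD group and 15522 to 16677 in the HF + AD group, so the groups did not overlap in this measure, and its part in the results below was not tested. The AD libraries were less alike than the HF + AD libraries. Median Pearson's r across genes with the other libraries of the group was 0.828 for AD mouse 1, 0.839 for AD mouse 2 and 0.857 to 0.874 for AD mice 3 to 5, against 0.943 to 0.954 for the HF + AD mice. For the tissue label, markers of keratinocytes outside the 10 keratins were read. All 9 such markers of basal cells and all 8 of suprabasal cells had enough reads to be tested, and the 22 keratinocyte reference genes summed to at least 7125 CPM in each library. Since the samples are bulk tissue, fewer cells of a type and less RNA per cell cannot be told apart.

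All 10 genes lie on the minus strand of GRCm38 in the mouse keratin clusters (GENCODE M21). The type I genes are on chromosome 11, with Krt10 at chr11:99385254-99389364, Krt15 at chr11:100131758-100135928 and Krt14 at chr11:100203162-100207548, each with 8 exons. The type II genes are on chromosome 15, with Krt80 at chr15:101347444-101370162 (8 exons) and the others with 9 exons each. These others are Krt5 at chr15:101707070-101712898, Krt2 at chr15:101810689-101818169, Krt1 at chr15:101845426-101850794, Krt77 at chr15:101858731-101869705, Krt79 at chr15:101929332-101940324 and Krt78 at chr15:101946001-101954287. Antisense or miRNA genes overlap Krt5 (Gm44323), Krt10 (Gm11940) and Krt80 (Gm35853 and Mir1941). Whether reads were assigned by strand is not given in the sources used here, so reads from these partners could not be separated.

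The RefSeq promoter table for GRCm38.p6 held 7 of the 10 genes, without Krt15, Krt1 and Krt80. The 100 bases before the start site are shown for a basal, a suprabasal and a late suprabasal keratin, since the 3 genes differ in their counts as described below. Capitals mark matches, on either strand, to 2 short A/T-rich motifs that were chosen after the sequences had been read, TATANA and GATAAAA, and the 2 kinds of match did not overlap each other. The windows are chr15:101712906-101713005 for Krt5, chr11:99389365-99389464 for Krt10 and chr15:101818170-101818269 for Krt2, each written 5′ to 3′ on the minus strand.
Krt5: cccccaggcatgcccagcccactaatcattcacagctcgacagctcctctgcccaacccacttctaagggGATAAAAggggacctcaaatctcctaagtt
Krt10: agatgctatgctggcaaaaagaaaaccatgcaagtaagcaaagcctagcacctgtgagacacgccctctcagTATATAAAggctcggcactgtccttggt
Krt2: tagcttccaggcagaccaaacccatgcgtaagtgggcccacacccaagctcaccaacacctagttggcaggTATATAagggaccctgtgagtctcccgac

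The TATANA match began 28 bases before the start site in Krt10 and 29 bases before it in Krt2, and Krt77 also held it. The GATAAAA match began 30 bases before the start site in Krt5 and in Krt78. Neither motif was in the windows of Krt79 and Krt14, and the Krt14 entry of the table starts 1518 bases inside the annotated gene. Of 32851 promoter windows of the same length, 9.48% held TATANA and 1.02% held GATAAAA.

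The comparison of HF + AD with AD asked which of these keratins differ with the diet. The basal keratins Krt5, Krt14 and Krt15 were higher in the HF + AD group, by 0.81 to 1.21 on the log2 scale, and none of the other tested keratins passed the test. Whether the basal keratins differ from the others in their change was not tested. Of the 8 keratins that were tested, 3 were higher, 0 were lower and 5 were not called by edgeR's quasi-likelihood test at an adjusted p under 0.05. Over all 14163 genes tested, 4.43% were called higher and 4.77% lower. The median log2 fold change was 0.17 over the 8 tested keratins and 0.02 over all genes. Over the same keratins it was 0.71 without AD mouse 1 and -0.03 with each library's trend with transcript GC content taken out, so it depends on that library and on that setting. Without AD mouse 1 the log2 fold changes were 0.81 for Krt5, 1.31 for Krt14 and 1.23 for Krt15. In the same fit they were 0.74 for Krt1, 0.68 for Krt10, 0.06 for Krt78, -0.21 for Krt79 and -1.03 for Krt2. Krt77 and Krt80 had too few reads to be tested, so they are described by their counts. At an unadjusted edgeR p under 0.05 the counts were again 3 higher and 0 lower, and DESeq2 also called Krt5, Krt14 and Krt15 and no other of the 10.

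Krt5, the basal type II keratin, had 2812, 2532, 2232, 2918 and 3807 CPM (counts of the gene scaled to the same library total in every mouse, with TMM factors) in AD mice 1 to 5. In the 7 HF + AD mice its level ran from 4043 over a median of 4730 to 6641 CPM. The lowest HF + AD mouse was thus above the highest AD mouse, a separation with HF + AD higher that 2.89% of all genes tested also showed. The mean log2(CPM + 1) of Krt5 was 11.46 ± 0.29 (SD, n = 5) in AD and 12.28 ± 0.24 (SD, n = 7) in HF + AD, with a two-sided exact permutation p = 0.00126, the smallest that the splits of the mice into 5 and 7 allow. The log2 fold change was 0.81 ± 0.15 (SE), with an edgeR adjusted p = 0.00679. Krt5 was called in every one of the 25 alternative fits, with edgeR, limma or DESeq2 adjusted p-values up to 0.0307.

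Krt14, the type I partner of Krt5, had 1277, 631, 544, 581 and 782 CPM in AD mice 1 to 5. The HF + AD mice ranged from 842 over a median of 1437 to 3020 CPM, and 5 of the 7 were above every AD mouse. The overlap came from AD mouse 1, whose level was above those of HF + AD mice 4 and 6. On the log2(CPM + 1) scale Krt14 averaged 9.50 ± 0.50 in AD (SD, n = 5) and 10.53 ± 0.54 in HF + AD (SD, n = 7), with an exact permutation p = 0.00884. The log2 fold change was 1.05 ± 0.27 (SE), with an edgeR adjusted p = 0.0248. This call was lost without AD mouse 2 (log2 fold change 0.99, edgeR adjusted p = 0.0625), without AD mouse 3 (0.94, 0.0588), without AD mouse 4 (0.97, 0.0555) and with each library's trend with GC content taken out (0.81, 0.0526). The last 300 bases of the Krt14 transcript matched Krt42 over 132 bases at 70.5% identity, and no other gene.

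Krt15, a type I keratin of basal cells and of the follicle bulge, had 184, 137, 187, 195 and 169 CPM in AD mice 1 to 5. In the HF + AD group it ran from 220 over a median of 387 to 860 CPM. All 7 HF + AD mice were above every AD mouse, as in 2.89% of all genes tested, and HF + AD mouse 2 was the highest. Mean log2(CPM + 1) was 7.44 ± 0.20 (SD, n = 5) for AD and 8.51 ± 0.67 (SD, n = 7) for HF + AD, with an exact permutation p = 0.00505. Krt15 had a log2 fold change of 1.21 ± 0.28 (SE) and an edgeR adjusted p = 0.0151. The HF + AD mice were more spread than the AD mice, with the highest over the lowest at 3.91 against 1.42. Much of the 3.91 rests on HF + AD mouse 2, since the next highest, HF + AD mouse 1, had 438 CPM.

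**Figure D1:**
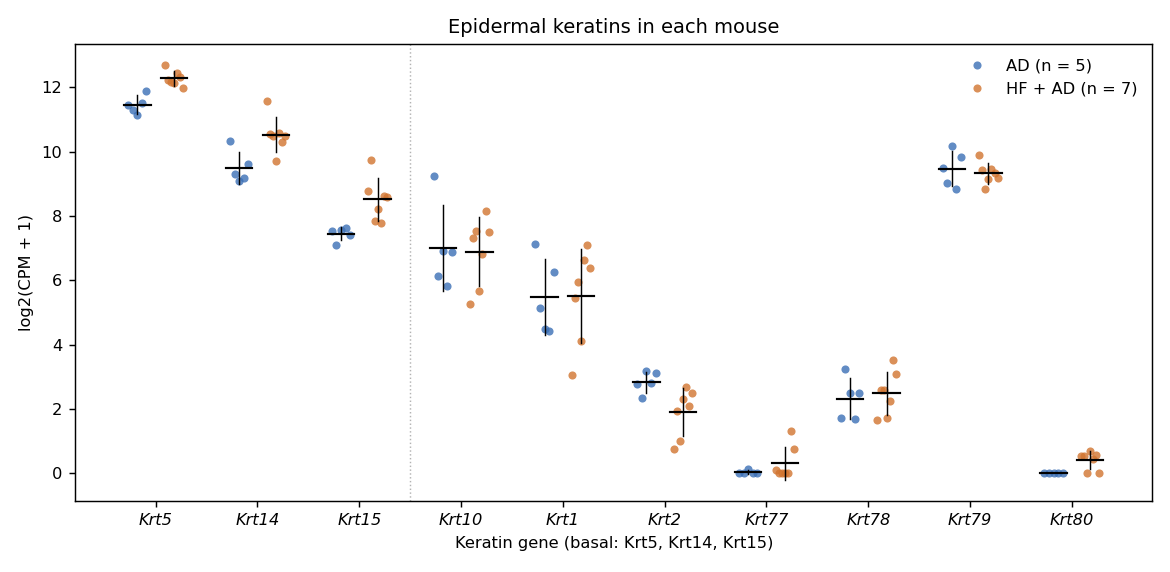
Level of each keratin in each mouse as log2(CPM + 1), with AD mice in blue (n = 5), HF + AD mice in orange (n = 7), the group mean as a horizontal bar and the SD as a vertical line. For Krt5 and Krt15 all 7 HF + AD mice lie above the AD mice, whereas the groups overlap for Krt10, Krt1, Krt2, Krt78 and Krt79, and Krt77 and Krt80 lie near 0.

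Krt10, the suprabasal type I keratin, differed more between mice of 1 group than between groups. Its level was 599, 69.8, 119, 55.4 and 116 CPM in AD mice 1 to 5, and the HF + AD mice ran from 37.6 over a median of 158 to 286 CPM. AD mouse 1 was the highest of all 12 mice, and HF + AD mouse 1 was the lowest. Mean log2(CPM + 1) of Krt10 was 6.99 ± 1.33 (SD, n = 5) in AD and 6.89 ± 1.06 (SD, n = 7) in HF + AD (exact permutation p = 0.889). The log2 fold change was -0.42, with a 95% interval from -1.63 to 0.79 and an edgeR adjusted p = 0.690. Its sign was not stable. The log2 fold change was 0.68 without AD mouse 1 (edgeR adjusted p = 0.323), and the log2(CPM + 1) difference of -0.10 became 0.17 without HF + AD mouse 1 and 0.10 without HF + AD mouse 4.

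Krt1, the type II partner of Krt10, had 137, 33.9, 21.4, 20.5 and 75.3 CPM in AD mice 1 to 5. The HF + AD mice ran from 7.24 over a median of 60.3 to 135 CPM, with HF + AD mice 1 and 4 below every AD mouse. The mean log2(CPM + 1) of Krt1 came to 5.48 ± 1.17 in AD (SD, n = 5) and to 5.52 ± 1.45 in HF + AD (SD, n = 7), with an exact permutation p = 0.961. The interval of its log2 fold change of 0.12 reached from -1.17 to 1.41 (edgeR adjusted p = 0.926), so a log2 difference of 1 in either direction lay within the interval. The fold was 0.74 without AD mouse 1, and its sign turned in 7 of 25 alternatives. The level of Krt1 in the highest HF + AD mouse was 18.6 times that in the lowest, against 1.64 times for Krt5 in the same group. The lowest for Krt1 was HF + AD mouse 1, and the next lowest, HF + AD mouse 4, had 16.4 CPM.

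Krt2, the late suprabasal type II keratin, was at low levels, with 5.80, 4.04, 7.97, 5.92 and 7.60 CPM in AD mice 1 to 5. The HF + AD mice had 0.693 to 5.43 CPM with a median of 3.26 CPM, from 9 to 62 counts per library. In 5 of the 7 HF + AD mice the level was below every AD mouse. Mean log2(CPM + 1) was 2.83 ± 0.33 (SD, n = 5) in AD and 1.90 ± 0.74 (SD, n = 7) in HF + AD, with an unadjusted exact permutation p = 0.0240. The permutation p was 0.0636 without AD mouse 3, 0.0606 without AD mouse 5 and 0.0795 with libraries scaled by a reference list of keratinocyte genes. The test over all genes did not call Krt2 (log2 fold change -1.01 ± 0.54 (SE), edgeR adjusted p = 0.264).

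Krt79, a type II keratin known from the upper hair follicle and the sebaceous duct, had 716, 521, 1140, 456 and 913 CPM in AD mice 1 to 5. The HF + AD mice ran from 452 over a median of 650 to 947 CPM, within nearly the same range. The log2 fold change of Krt79 was -0.19, with a 95% interval from -0.67 to 0.28 and an edgeR adjusted p = 0.632. With the GC trend taken out it was -0.46 (edgeR adjusted p = 0.168). Its sign was turned without AD mouse 3 (0.01 against an all-gene median of 0.03), without a call. Under scaling by a reference list of keratinocyte genes it was 0.13, below the all-gene median of 0.33 under that scaling.

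Krt78, a further type II keratin, was at 2.21 to 8.38 CPM in AD and at 2.16 to 10.4 CPM in HF + AD, and its log2 fold change of 0.22 had an interval from -0.97 to 1.42 (edgeR adjusted p = 0.841). Krt77, a type II keratin gene next to Krt1 in the cluster, had 1 read in AD mouse 3 and none in the other AD mice. In the HF + AD group it had 28 reads, of which 18 were in mouse 6, and 4 of the 7 mice had none. Krt80, also type II, had no read in the 5 AD mice and 4 to 7 reads in HF + AD mice 1, 2, 4, 5 and 6. For Krt80 an exact permutation test gave p = 0.0366 unadjusted and p = 0.0606 when any but HF + AD mice 3 and 7 was left out. Without the filter on low counts the edgeR adjusted p was 0.0879 for Krt80 and 0.238 for Krt77. In 1 library a count of 0 allows up to 3 counts, or 0.308 CPM in the shallowest AD library. This limit is one for a single library and not for the AD group. The HF + AD mean of Krt80 was 0.343 CPM, and with no read in AD no fold is given for it. The last 300 bases of the Krt80 transcript also matched 408 other genes, so its few reads are uncertain.

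**Figure D2:**
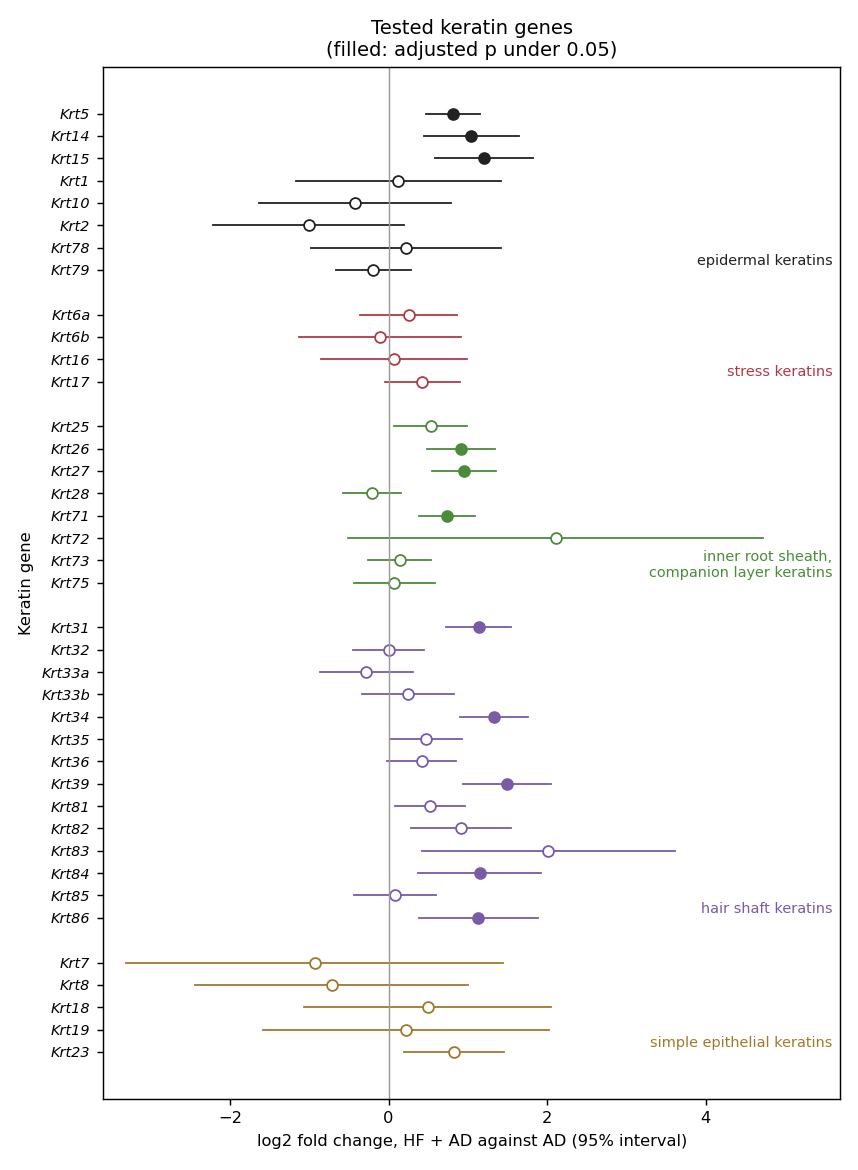
Log2 fold change of HF + AD against AD with its 95% interval for the tested keratin genes of 5 lists, coloured by list and filled where the edgeR adjusted p was under 0.05. Among the epidermal keratins the filled points are Krt5, Krt14 and Krt15, with folds of 0.81 to 1.21, and the intervals of Krt1, Krt10, Krt2 and Krt78 are wide and include 0.

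Levels can be compared between genes here without dividing by length, because each transcript is read from its 3′ end. In both groups Krt5 was the most abundant of the 10, above Krt14 in 12 of 12 mice, and it made up 59.6% of the keratin counts of the list in AD and 63.6% in HF + AD. Krt14 and Krt79 could not be ordered in AD (Krt14 was higher in 3 of 5 mice), while Krt14 was higher in 7 of 7 HF + AD mice. Krt10 was above Krt1 in 12 of 12 mice. Over all mice Krt78 and Krt2 could not be ordered, with Krt78 higher in 6 of 12 mice. By group, Krt2 was higher in 4 of 5 AD mice and Krt78 in 5 of 7 HF + AD mice.

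The 10 keratins together took 0.471% ± 0.080 (SD, n = 5) of all counts in AD and 0.795% ± 0.150 (SD, n = 7) in HF + AD. The shares lay between 0.390% and 0.571% in AD and between 0.636% and 1.09% in HF + AD, without overlap. Most of these counts are those of Krt5 and Krt14, so the share largely repeats their values.

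Ratios of keratin pairs within a library do not depend on the scaling of libraries, and they are given as descriptions. The log2 ratio of Krt5 to its partner Krt14 was 1.96 ± 0.48 (SD, n = 5) in AD and 1.75 ± 0.40 (SD, n = 7) in HF + AD. For Krt1 against its partner Krt10 the log2 ratios were -1.54 ± 0.76 and -1.41 ± 0.69. The groups overlapped in both partner ratios. The difference between groups in Krt5 over Krt14 was -0.21, and with 1 mouse left out it ran from -0.41 (AD mouse 1) to -0.11 (HF + AD mouse 1), with -0.12 for AD mouse 4, -0.13 for AD mouse 5 and -0.32 for HF + AD mouse 4. For the suprabasal to basal ratios the log2 means were -3.65 ± 1.34 in HF + AD and -2.52 ± 0.92 in AD for Krt10 over Krt14, and -6.81 ± 1.63 and -6.02 ± 1.08 for Krt1 over Krt5 (SD). Single mice carried much of these differences. The difference for Krt10 over Krt14 went from -1.13 to -0.68 without HF + AD mouse 1, and that for Krt1 over Krt5 from -0.79 to -0.29 without HF + AD mouse 1 and to -0.38 without AD mouse 1. The medians of Krt1 over Krt5 were -6.23 in HF + AD and -6.22 in AD. The groups overlapped in both, with 3 of 7 HF + AD mice below every AD mouse for Krt10 over Krt14 and 2 of 7 for Krt1 over Krt5. Krt15 over Krt14 was -2.02 ± 0.76 in HF + AD and -2.07 ± 0.52 in AD, and Krt2 over Krt10 was -5.54 ± 1.28 and -4.37 ± 1.34. No ratio was formed with Krt77 because most libraries had no read of it.

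**Figure D3:**
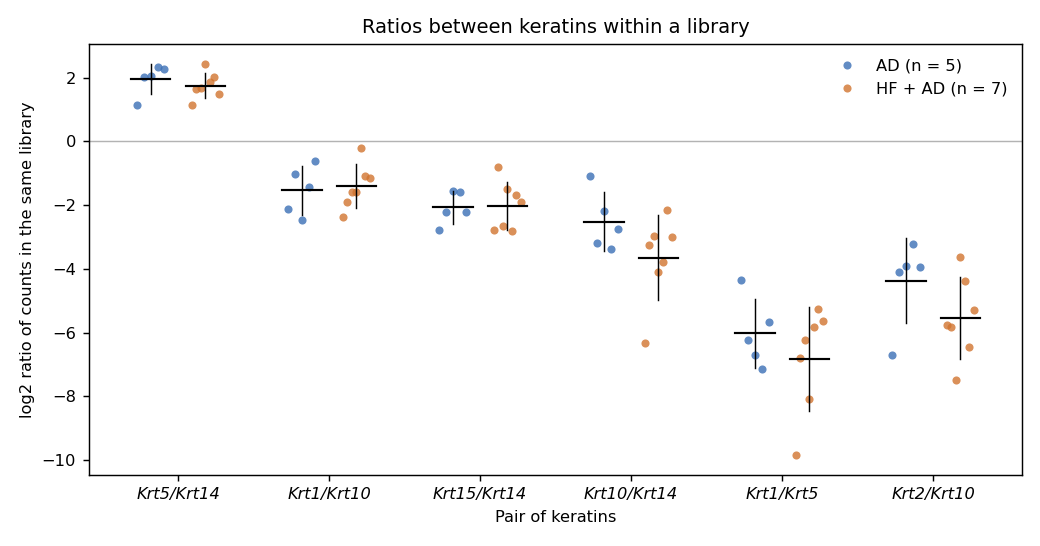
Log2 ratios of counts of keratin pairs within each library, with AD mice in blue (n = 5) and HF + AD mice in orange (n = 7), the mean as a bar and the SD as a line. The groups overlap in all pairs shown, and the lowest values of Krt10/Krt14 (-6.33) and Krt1/Krt5 (-9.84) belong to HF + AD mouse 1.

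The partners Krt1 and Krt10 moved together from mouse to mouse. Over the 12 mice Pearson's r of their log2(CPM + 1) was 0.855 (permutation p = 0.00035, Benjamini-Hochberg adjusted over 3 relations 0.00105) and Spearman's rho was 0.818 (permutation p = 0.00185, adjusted 0.00555). Without the 2 mice farthest from the median of Krt1, r was 0.760. Within the 7 HF + AD mice r was 0.911 (exact permutation p = 0.00873, adjusted 0.0131) and rho was 0.750 (exact p = 0.0663, adjusted 0.0994), but r was 0.374 without the 2 farthest mice, so this relation rests on those mice. For Krt5 with Krt14 within the HF + AD mice r was 0.735 (exact permutation p = 0.0685, adjusted 0.0685) and rho was 0.643 (exact p = 0.139, adjusted 0.139), and r fell to -0.03 without the 2 farthest mice. A correlation of these pairs within the 5 AD mice was not tested.

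**Figure D4:**
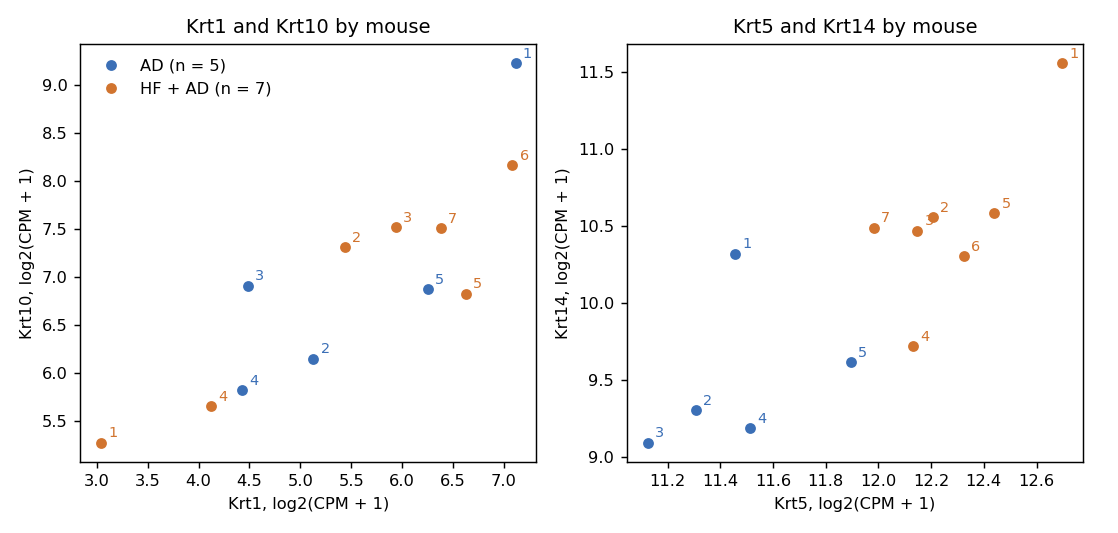
Krt10 against Krt1 and Krt14 against Krt5 as log2(CPM + 1) in each mouse, numbered within its group, with AD in blue (n = 5) and HF + AD in orange (n = 7). Krt1 and Krt10 rise together over the 12 mice (Pearson's r 0.855) with the groups mixed, whereas for Krt5 the 7 HF + AD mice lie to the right of the AD mice.

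The genes whose levels followed Krt10, Krt14, Krt15, Krt2 and Krt79 most closely over the 12 mice were sought after each group's mean was subtracted. They were found among about 9740 genes with a mean of at least 10 CPM, and they are a description. For Krt10 they were Lce1a1 (r = 0.94), Lce1d (0.93), Lce1b (0.93), Asprv1 (0.91) and Hal (0.91), and the Lce genes encode late cornified envelope proteins. Near to Krt14 were Teddm3 (r = 0.93), Uqcr11 (0.93), Actg1 (0.93) and Ly6d (0.92). The nearest to Krt15 were Rpl37rt (r = 0.87), Rpl32 (0.86), Kat7 (0.85), Psmb3 (0.85) and Rpl27a (0.84), among them ribosomal protein genes. Within the AD mice r was 0.53 for Kat7 and 0.21 for Psmb3, against 0.93 and 0.88 within the HF + AD mice. For Rpl37rt, Rpl32 and Rpl27a it was at least 0.70 within each group. Krt2 was nearest to Wls (r = 0.87), Pccb (0.85), Tef (0.84), Serpina3j (0.83) and Amer1 (0.81). For Amer1 r was 0.35 within the AD mice and 0.94 within the HF + AD mice, and for the others it was at least 0.61 within each group. Krt79 was nearest to Vwa8 (r = 0.89), Mrps10 (0.89), Mon1a (0.89), Mrpl54 (0.87) and Mical1 (0.87).

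The remaining keratin genes give the setting for these values. None of the 4 stress keratins, which keratinocytes induce on injury, was called, with log2 fold changes of 0.25 for Krt6a, -0.11 for Krt6b, 0.07 for Krt16 and 0.43 for Krt17 (edgeR adjusted p from 0.219 to 0.941). At an unadjusted p under 0.05, and by DESeq2, 0 of the 4 were called as well. Without AD mouse 1 the log2 fold changes of the 4 stress keratins ran from 0.53 to 0.95, and 1 of them was called. Of 8 tested keratins of the inner root sheath and companion layer, 3 rose, namely Krt27 (0.95), Krt26 (0.91) and Krt71 (0.74). Of 14 tested hair shaft keratins 5 rose, namely Krt39 (1.49), Krt34 (1.33), Krt84 (1.15), Krt31 (1.14) and Krt86 (1.13), and none of either list fell. Over all genes tested, 4.43% were called higher and 4.77% lower. At an unadjusted edgeR p under 0.05, 10 hair shaft keratins were higher, and by DESeq2 7 were. For the inner root sheath and companion layer the count was 4 by either. The count of hair shaft keratins called was 3 without AD mouse 1 and 10 under scaling by the keratinocyte reference list. The 8 keratins of the hair follicle named above rose beside the basal keratins. The part of follicle cells in the counts of Krt5, Krt14 and Krt15 was not tested. The summed level of the 10 outer root sheath and bulge markers was 1868 to 3047 CPM in AD and 2601 to 4869 CPM in HF + AD, with 1 of 9 tested members called higher, none at 0 in every library and 4 of the 7 HF + AD mice above every AD mouse. The median log2 fold change of the 9 tested was -0.02, and 4 of them were positive. Krt17, which is also in this list, alone had medians of 1238 CPM in AD and 1737 CPM in HF + AD.

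Whether the other basal keratinocyte markers differ from the basal keratins in their change was not tested, and their values are a description. Of the 12 markers of basal cells 3 were called, and these were Krt5, Krt14 and Krt15 themselves. Of the 9 that are not keratins, 0 were called by edgeR (2 had an unadjusted p under 0.05, and DESeq2 called 1), with a median log2 fold change of 0.14 and a range from -0.29 to 0.68. Among them were Itga6 (0.14) and Itgb4 (0.39), which encode the integrin of hemidesmosomes, Col17a1 (0.00), and Trp63 (-0.29), the transcription factor of basal cells. In this list of 9, 1 marker was called without AD mouse 1 and 2 under scaling by the keratinocyte reference list. Of 11 tested suprabasal markers, edgeR called 0, with 2 higher and 1 lower at an unadjusted p under 0.05. DESeq2 called 1 of them lower, and edgeR called 3 higher without AD mouse 1. The summed level of the 22 keratinocyte reference genes was 8583 to 11450 CPM in AD and 7125 to 8381 CPM in HF + AD, lower in all 7 HF + AD mice, although 2 of its genes rose and 1 fell. The median log2 fold change of this list was 0.005, with 11 of the 22 genes positive, so the list as a whole did not fall with its sum. Scaling by that list moved the median log2 fold change of all genes by 0.31, and Krt5, Krt14 and Krt15 were still the epidermal keratins called. The sums of skeletal muscle markers were 1617 to 3549 CPM in AD and 1068 to 2725 CPM in HF + AD. Of 14 tested 2 were called lower, the median log2 fold change was -0.70, and 3 of the 7 HF + AD mice lay below every AD mouse. The muscle markers called lower were 0 without AD mouse 1, 0 under scaling by the keratinocyte reference list and 4 with the GC trend taken out. The sums of pigment cell markers were 1864 to 2904 CPM in AD and 950 to 2028 CPM in HF + AD. Of 8 tested 2 were called lower, and 5 of the 7 HF + AD mice lay below every AD mouse. Under scaling by the keratinocyte reference list 0 pigment cell markers were called. Sebocyte markers summed to 3032 to 5660 CPM in AD and 2528 to 4612 CPM in HF + AD. Of 11 tested 1 was higher and 1 lower, and 4 of the 7 HF + AD mice lay below every AD mouse. The sebocyte markers called lower were 3 without AD mouse 1, 3 with the GC trend taken out and 0 under scaling by the keratinocyte reference list. Endothelial markers summed to 106 to 181 CPM and 114 to 267 CPM, with 2 of 10 higher and 4 of the 7 HF + AD mice above every AD mouse. Adipocyte markers summed to 186 to 852 CPM in AD and 222 to 731 CPM in HF + AD, with 2 of 11 higher and 0 lower. With the GC trend taken out 0 adipocyte markers were called. Over all genes tested, 4.43% were called higher and 4.77% lower. The part of these cell types in the keratin results was not tested.

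Regulators and anchors of keratins were given by lists of known members. Of 31 regulators of keratin genes 1 rose and 2 fell, which is near the 4.43% and 4.77% of all genes tested and no result about regulators as a group. The 3 were Ovol1, a zinc finger repressor of the epidermis, at 0.62 on the log2 scale, Junb, a subunit of AP-1, at -0.53, and Rxra, a retinoid receptor, at -0.52 (edgeR adjusted p from 0.0137 to 0.0269). Among 23 tested filament anchors and partners 5 rose and 1 fell. Plec, which encodes plectin and links keratin filaments to hemidesmosomes, rose by 1.21 ± 0.24 (SE), from 41.3 to 94.6 CPM in AD against 107 to 237 CPM in HF + AD. Trim29, a tripartite motif protein of epithelial cells, rose by 1.23. Of the 9 tested genes of this list that encode desmosomal proteins, 3 rose, namely Pkp3 (0.80), Dsp (0.75) and Dsc3 (0.71). The other 6 were not called, with log2 fold changes of -0.19 for Dsg3, -0.10 for Dsg1a, 0.12 for Dsc1, 0.23 for Pkp1, 0.34 for Jup and 1.23 for Dsg1b. Ppl, which encodes periplakin of the cornified envelope, fell by 0.54 on the log2 scale. Scaling by the keratinocyte reference list, which raised genes in general by the 0.31 given above, left 6 regulators higher and 0 lower and 9 anchors higher and 0 lower. Without AD mouse 1 no anchor was called lower, and with the GC trend taken out no regulator was called higher.

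Transcript GC content moved with the fold changes over all genes. All 8 tested keratins lay in the upper 2 of 5 equal bins of genes by GC content. Krt10, Krt15, Krt2 and Krt1 were in bin 4, where 5.58% of genes were called higher, and Krt14, Krt5, Krt79 and Krt78 in bin 5, where 6.86% were. With the trend taken out in each library, Krt5 and Krt15 were called and Krt14 was not, as given above. The part of GC content in the results was not otherwise tested.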

How the data were processed

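RNA from dorsal skin was sequenced from the 3′ end of mRNA (QuantSeq), with 1 library per mouse. The files deposited by the authors hold unnormalized counts of reads for each gene symbol, and the submitters' processing notes name Bowtie2, bedtools and the build mm10. The counting rule, strand setting and duplicate removal are not given in the sources used here. No molecular identifiers are described, so limits from low counts cover counting error only. Samples were grouped by label. Counts were fitted with edgeR 4.0.16 in R 4.3.3 (TMM, filterByExpr, quasi-likelihood fit of the group effect), and p-values were adjusted by Benjamini-Hochberg for the 14163 genes kept, with calls at 0.05. Per-mouse values are CPM with TMM-scaled totals, tested as log2(CPM + 1), with a pseudocount of 1, by exact permutation over all splits into 5 and 7 mice (SciPy 1.17.1). P-values measure the spread between these mice. Intervals of fold changes are approximate 95% intervals that use the residual degrees of freedom alone. They are wider than the edgeR test implies and can include no change at an unadjusted p under 0.05. Correlations over 12 mice used 100000 permutations. Alternatives included limma 3.58.1 and DESeq2 1.42.0. On simulated counts, edgeR called 193 of 196 tested genes that were changed and 13 unchanged genes. These counts were drawn with a biological coefficient of variation (spread between mice of a group) of 0.2. How edgeR performs at the spread of the real AD and HF + AD mice was not tested. No 2 libraries agreed within sampling noise. Genes named are the 10 keratins, the genes of the other keratin, regulator and anchor lists with an adjusted p under 0.05 (at most 6 per list) and Krt6a, Krt6b, Krt16 and Krt17, the 5 nearest genes of 5 keratins (1 of them is not reported here), and markers where a list moved with a result. Itga6, Itgb4, Col17a1, Trp63, Dsg3, Dsg1a, Dsc1, Pkp1, Jup and Dsg1b were named outside this rule, after their values were seen. The members and lists were chosen with earlier results of these data known.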

Additional observations from a re-analysis of the deposited data

Results flagged for a closer look

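Of 33 groups of values, 4 had a highest or lowest mouse far from the rest by Dixon's test, which flags about 1 in 20 groups by chance. AD mouse 1 had the lowest log2 ratio of Krt5 to Krt14 in its group, 1.14 against 2.01 in the next mouse, and the lowest log2 ratio of Krt2 to Krt10, -6.69 against -4.11. This is the mouse with the highest Krt14 and Krt10 in its group. HF + AD mouse 1 had the largest share of counts on the 10 keratins, 1.09% against 0.832% in the next mouse. AD mouse 3 had a log2(CPM + 1) of 0.14 for Krt77, from 1 read, while the other AD mice had none.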

How the results depend on the processing

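Between 2 and 3 of the epidermal keratins were called in all 25 alternatives. Krt5 was in each of them. The total of genes called was 1303 by edgeR, 2159 by DESeq2 and 192 with a replicate block, and 639 to 1461 with 1 mouse left out. The low totals were 639 (HF + AD mouse 2 left out), 686 (HF + AD 1), 794 (HF + AD 4) and 803 (AD 2). Replicate numbers did not pair the mice (r of same-numbered mice from -0.08 to 0.04). With the block Krt15 was not called (1.01, edgeR adjusted p = 0.104), and Krt1 (-0.23) and Krt78 (-0.19) changed sign. Other sign changes came without a call. With 1 mouse left out, the log2 fold change and the log2(CPM + 1) difference ran from -0.18 to 0.74 and -0.23 to 0.45 for Krt1, from -0.68 to 0.68 and -0.40 to 0.46 for Krt10, from -0.048 to 0.59 and -0.010 to 0.39 for Krt78, and from -0.32 to 0.0053 and -0.30 to 0.030 for Krt79. Scaling by the keratinocyte reference list gave 0.0039 and 0.21 for Krt10 and 0.13 and 0.17 for Krt79. In alternatives chosen after seeing the data, GC correction gave -0.0028 for Krt1 and -0.048 for Krt78, and leaving out AD mouse 1 and HF + AD mouse 1 together gave 0.85 for Krt10. The calls per list under other settings were also chosen after seeing the data. The median of all genes moved by 0.13 with limma and by 0.12 with the block. With 1 mouse left out, the difference in log2 ratio ran from -1.08 to -0.29 for Krt1 over Krt5 and from -1.38 to -0.68 for Krt10 over Krt14, and it changed sign for Krt1 over Krt10 (-0.11 to 0.36) and Krt15 over Krt14 (-0.16 to 0.18). The causes of these changes were not tested. Krt77, Krt80 and Krt2 had few counts, and the part of depth in their results was not tested.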
